A study of Mus musculus with 6 samples.

Results

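The heat shock genes described here are 10 genes of the cytosolic protein folding machinery, chosen by name: Hspa1a, Hspa1b, Hspa8, Hsp90aa1, Hsp90ab1, Hsph1, Dnajb1, Hspb1, Bag3 and Hsf1. All 10 had a row among the 23494 genes of the deposited table. They were compared between 3 libraries labelled rMANF and 3 labelled vehicle, each a separate biological replicate of a tissue that the labels call heart. Every mouse was a wild type C57BL/6 female, of an age not given in the sources used here, with B16F10 cells, a transplantable melanoma line, placed under the skin of a flank. rMANF mice received recombinant mesencephalic astrocyte-derived neurotrophic factor at 2 µg/kg into the peritoneum each day, and vehicle mice received phosphate-buffered saline, from a mean tumour volume near 60 mm3, with 8 mice randomised per group. MANF is a protein of the endoplasmic reticulum that cells also release, and the series compares RNA after its injection with RNA after vehicle.

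Heat shock proteins hold unfolded proteins in a state from which they can fold, refold or be degraded. The Hsp70 proteins bind short exposed stretches of a client in a cycle of ATP use that J-domain proteins start and nucleotide exchange factors end, and clients such as kinases and steroid receptors are passed on to Hsp90. Small heat shock proteins hold clients without ATP. Heat, oxidants and other insults free the transcription factor HSF1, which binds heat shock elements in the promoters of these genes, so that some members are made at all times and others mainly under stress.

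The label heart was checked first, because every direction below rests on the labels. Of 14 cardiomyocyte markers 11 had rows, and they summed to 8.59 to 12.1 TPM (a gene's length-corrected share of the transcripts in a library) in rMANF libraries and 8.26 to 68.7 TPM in vehicle libraries. Nppa, Actc1, Mybpc3, Ttn and Pln, which heart muscle cells make in bulk, stayed under 1 TPM in all 6 libraries. The 12 markers of dividing cells summed to 1496 to 1527 TPM in rMANF libraries and 1494 to 1567 TPM in vehicle libraries. Of 7 melanoma and melanocyte markers 3 had rows, and they summed to 7.44 to 10.2 TPM in rMANF libraries and 7.96 to 12.6 TPM in vehicle libraries, with Pmel and Sox10 under 1 TPM in every library. Which tissue or cells gave this RNA cannot be told from these values, and the libraries are called libraries labelled heart. All 14 macrophage and monocyte markers had rows and none was under 1 TPM in every library. They summed to 2146 to 2959 TPM in rMANF libraries and 3644 to 4210 TPM in vehicle libraries, and the 12 T and NK cell markers to 27.5 to 49.9 TPM in rMANF libraries and 52.8 to 150 TPM in vehicle libraries, with Ncr1 under 1 TPM in every library. Transcripts of the mitochondrial genome took 2.11% to 2.73% of TPM in rMANF libraries and 3.16% to 3.88% in vehicle libraries. These measures separate the groups, and their part in the heat shock values was not tested. Vehicle replicate 2 stood apart in muscle RNA and vehicle replicate 1 in heat shock RNA, as given beside the results they touch. Vehicle replicate 1 was also the highest in neutrophil markers (7 of 9 with rows), at 211 TPM, where the rMANF libraries held 17.9 to 36.9 TPM and the other vehicle libraries 23.8 and 41.7 TPM; Cxcr2 and Ly6g were under 1 TPM in every library. In a bulk sample fewer cells of a type and less RNA per cell cannot be told apart.

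Promoters of 4 genes are shown because they carry the pairs of genes and the element letters that the results refer to. Each stretch is the RefSeq sequence of the 250 bases before the annotated start site on build GRCm38.p6, in the direction of transcription. Capitals mark a pair of facing heat shock element blocks, GAANNTTC or TTCNNGAA, where N is any base. Each motif reads as itself on the other strand.
Hspa1a, chr17:34972157-34972406, minus strand: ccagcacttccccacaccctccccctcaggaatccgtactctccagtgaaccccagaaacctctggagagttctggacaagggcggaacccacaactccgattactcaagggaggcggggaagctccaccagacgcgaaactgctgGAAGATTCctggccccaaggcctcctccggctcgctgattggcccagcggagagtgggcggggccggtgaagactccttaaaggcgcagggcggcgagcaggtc
Hspa1b, chr17:34959239-34959488, minus strand: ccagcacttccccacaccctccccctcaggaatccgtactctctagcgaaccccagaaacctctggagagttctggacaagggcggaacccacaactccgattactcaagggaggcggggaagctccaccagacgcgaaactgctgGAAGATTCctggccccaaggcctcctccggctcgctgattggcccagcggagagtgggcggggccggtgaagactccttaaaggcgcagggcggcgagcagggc
Hspb1, chr5:135887669-135887918, plus strand: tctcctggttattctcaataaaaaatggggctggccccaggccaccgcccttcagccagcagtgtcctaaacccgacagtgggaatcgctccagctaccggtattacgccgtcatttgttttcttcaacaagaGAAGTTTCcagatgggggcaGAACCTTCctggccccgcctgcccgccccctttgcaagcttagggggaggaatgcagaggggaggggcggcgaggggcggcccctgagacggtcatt
Hsph1, chr5:149636337-149636586, minus strand: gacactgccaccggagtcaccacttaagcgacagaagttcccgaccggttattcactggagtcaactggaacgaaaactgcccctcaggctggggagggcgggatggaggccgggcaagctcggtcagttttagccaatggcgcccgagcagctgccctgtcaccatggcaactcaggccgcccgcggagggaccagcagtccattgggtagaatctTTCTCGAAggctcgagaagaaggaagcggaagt

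RefSeq windows of 300 bases, reaching 50 bases past the start site, were matched for 6 of the 10 genes: Hspa1a, Hspa1b, Hsph1, Dnajb1, Hspb1 and Bag3. Over all 32851 windows of that length, 15.1% held a pair of facing blocks and 0.603% held 3 blocks in a row, alternating GAA and TTC with 2 bases between blocks, searched on both strands. Hspa1a, Hspa1b, Hsph1, Hspb1 and Bag3 held at least 1 pair. Hsph1 alone among them held 3 blocks in a row, TTCTGGAAAGTTC, whose first base lies 37 bases past the start site of the window shown and which also contains 2 overlapping pairs. In both of its windows Dnajb1 held no pair. The Hspa1a and Hspa1b stretches shown differ at 3 of 250 bases, and both have their pair, GAAGATTC, with its first base 104 bases before the start. A match to these letters is a description of the sequence only.

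Before any comparison, the levels of the 10 genes spanned about 3 orders of magnitude. Hspa8, the Hsp70 that cells make at all times (chromosome 9, 40800984 to 40810087, GRCm38), was the most abundant at a mean of 2369 TPM over the 6 libraries, which placed it at rank 74 of the 12865 genes tested. Hsp90ab1, the constitutive cytosolic Hsp90 (chromosome 17, 45567775 to 45573271), followed at 1863 TPM, and Hsp90aa1, the Hsp90 that stress can raise (chromosome 12, 110690605 to 110702728), at 660.0 TPM. Hspa8 and the Hsp90 genes together made up 94.8% to 95.8% of the summed TPM of all 10 genes in every library. The order went on with Hsph1 at 93.3 TPM, Hsf1 at 49.0, Dnajb1 at 43.6, Bag3 at 32.7, Hspa1b at 17.5, Hspb1 at 9.14 and Hspa1a at 2.52 TPM. The stress-inducible Hsp70 genes thus stood far below the constitutive member, and Hspa8 exceeded the sum of Hspa1a and Hspa1b by 65.1 to 219-fold within a library. Between neighbours in this order the ranges over the 6 libraries were apart for Hsp90ab1 and Hsp90aa1, Hsp90aa1 and Hsph1, Hsph1 and Hsf1, and Hspb1 and Hspa1a. All other neighbours overlapped.

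**Figure D1:**
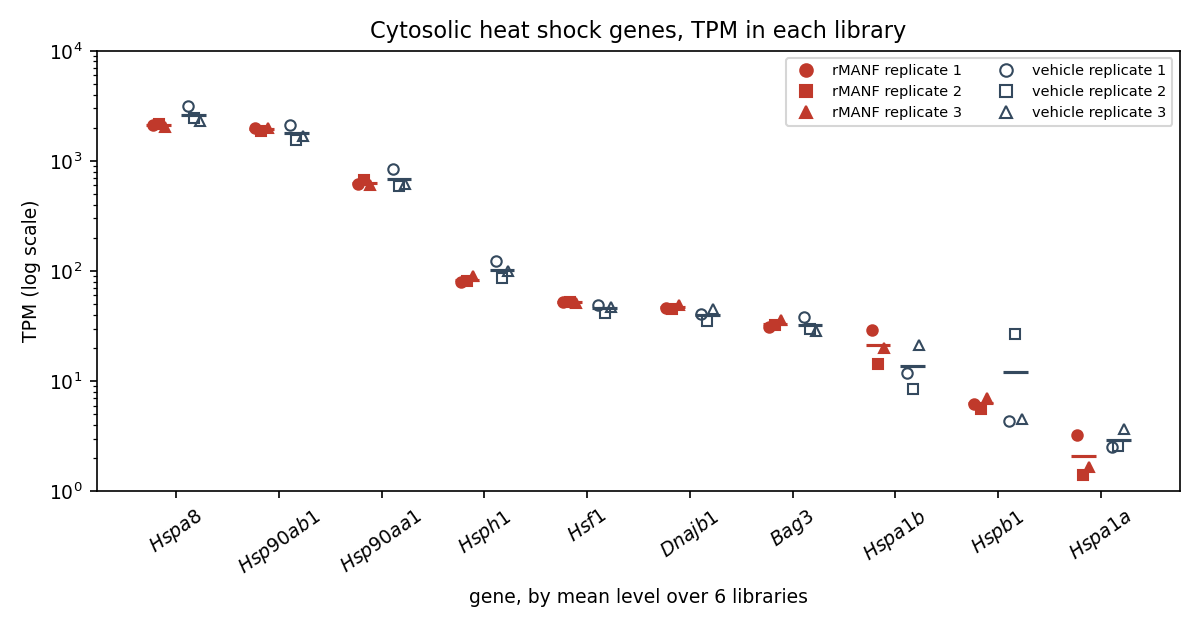
TPM of each heat shock gene in each of the 6 libraries, on a log axis, with rMANF libraries left of vehicle libraries, 1 marker per library and a bar at each group's mean. Hspa8 and the Hsp90 genes lie at 597 to 3156 TPM over all libraries, and vehicle replicate 2 stands apart for Hspb1 at 27.0 TPM.

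Between the groups the 10 genes did not move as a block. On log2(TPM + 1), rMANF minus vehicle, 5 lay above 0, against 57.3% of all genes, and 5 below, with a median of −0.03 beside 0.04 over all genes tested. All 10 passed the filter of a mean of at least 1 TPM. Limma (linear model across 12865 genes, Benjamini-Hochberg adjusted p under 0.05) called 0 of the 10 and 0% of all genes, and no other tool was run for single genes. At an adjusted p under 0.10 it also called 0 of the 10, against 2.73% of all genes. At an unadjusted p under 0.05 it counted 1 of the 10, Hspa8, against 20.5% of all genes. The groups did not overlap for 2 of the 10 with rMANF higher, Dnajb1 and Hsf1, against 18.9% of all genes, and for 1 with rMANF lower, Hspa8, against 9.02%. The non-overlapping shares are near those of the table as a whole.

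**Figure D2:**
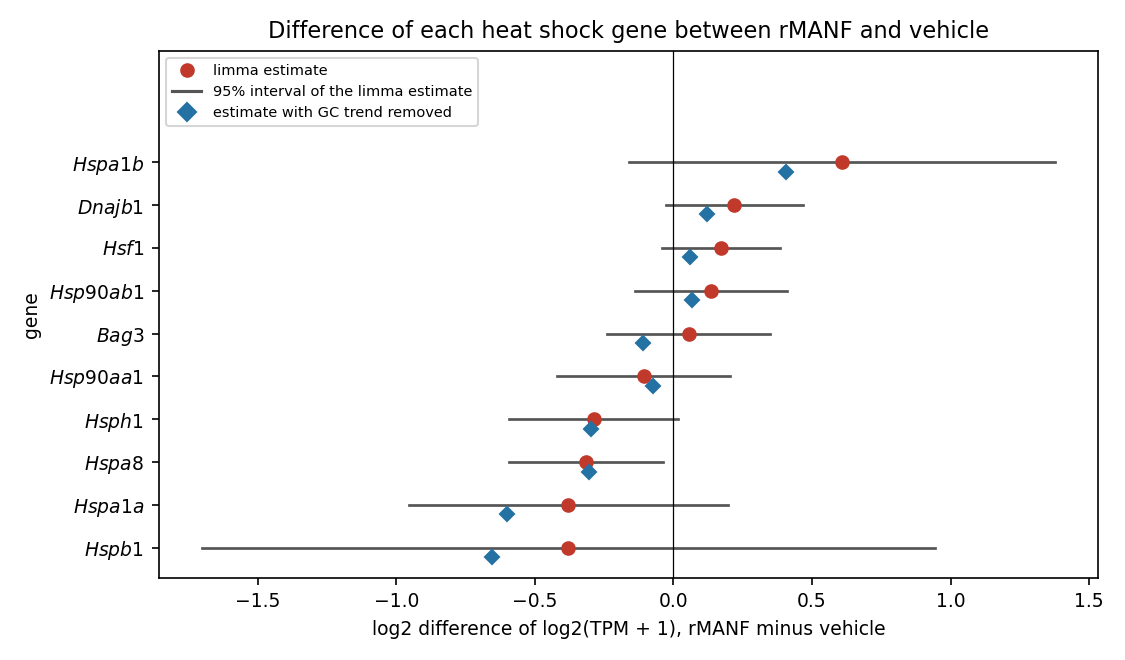
Log2 difference of log2(TPM + 1), rMANF minus vehicle, for each heat shock gene, with the limma estimate and its 95% interval, and the estimate after each library's trend on GC content was removed. The interval of Hspa8 lies below 0 at −0.59 to −0.04, and those of the other 9 genes cross 0.

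The abundant Hsp70, Hspa8, lay lower in rMANF libraries. It measured 2103, 2162 and 2040 TPM in rMANF replicates 1, 2 and 3, against 3156, 2439 and 2317 TPM in vehicle replicates 1, 2 and 3. The groups did not overlap, although vehicle replicate 3 was only slightly above rMANF replicate 2. Means were 2101 ± 61.1 TPM with rMANF and 2637 ± 454 TPM with vehicle (SD, n = 3 each), and the log2 difference of −0.31 ± 0.12 (SE) missed the threshold (limma, adjusted p = 0.198). Vehicle replicate 1 had the highest value, and without it the difference was −0.18 (limma, adjusted p = 0.146). The part of that library's neutrophil RNA in the values of Hspa8, Hsph1 and the Hsp90 genes was not tested beyond leaving the library out. Exons of Hspa8 overlap 3 small nucleolar RNA genes on the same strand, whose reads cannot be told from its own.

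Hsph1 encodes Hsp110, a large relative of Hsp70 that drives nucleotide exchange (chromosome 5, 149614287 to 149636376). It measured 79.6, 80.7 and 90.2 TPM in rMANF replicates 1, 2 and 3, against 123, 85.9 and 101 TPM in vehicle replicates 1, 2 and 3. Only rMANF replicate 3 reached into the vehicle range. The log2 difference was −0.29 ± 0.13 (SE; limma, adjusted p = 0.266), and without vehicle replicate 1 it was −0.16 (adjusted p = 0.355). Summed over the 10 genes, that library held 6394 TPM, where the other 5 held 4825 to 4941 TPM.

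Hspa1a and Hspa1b, the classic stress-inducible Hsp70 genes, lie 9951 bases apart on chromosome 17 (34969190 to 34972156 and 34956436 to 34959238), each as a single exon. Their coding sequences, 1923 and 1926 bases without the stop codon, were 99.4% identical in a global alignment, with 11 differing columns. Of all runs of 31 bases in the Hspa1a transcript 63.8% also occur in Hspa1b, so the split of reads between them is an estimate. Hspa1a is further overlapped on the other strand by Gm20481 (0.305 to 3.86 TPM in rMANF libraries and 2.07 to 4.57 TPM in vehicle libraries), and the Nextera XT kit used does not mark strand.

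Hspa1b measured 29.1, 14.5 and 19.8 TPM in rMANF replicates 1, 2 and 3, against 11.9, 8.56 and 21.2 TPM in vehicle replicates 1, 2 and 3. Vehicle replicate 3 stood above the lower pair of rMANF libraries, so the groups overlapped. Hspa1a measured 3.23, 1.39 and 1.68 TPM in rMANF replicates 1, 2 and 3, against 2.54, 2.58 and 3.71 TPM in vehicle replicates 1, 2 and 3. Its groups overlapped as well, through rMANF replicate 1. The log2 differences had opposite signs, 0.61 ± 0.33 for Hspa1b and −0.38 ± 0.25 for Hspa1a (SE; limma, adjusted p = 0.344 and 0.431). Their sum, which does not depend on how reads were split, was 23.2 ± 8.36 TPM with rMANF and 16.8 ± 7.19 TPM with vehicle (SD, n = 3 each; exact two-sided permutation p = 0.4 over 20 assignments, where the smallest possible is 0.1). A difference in the sum was thus within the spread between replicates.

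The share of Hspa1b in that sum separated the groups more clearly than either gene. It was 90.0%, 91.2% and 92.2% in rMANF replicates 1, 2 and 3, against 82.3%, 76.9% and 85.1% in vehicle replicates 1, 2 and 3. Every rMANF library lay above every vehicle library. The difference was 9.70 percentage points (exact two-sided permutation p = 0.1, the smallest 3 against 3 libraries allow). Groups of 3 that do not overlap always give this p, so it only restates the separation. A ratio within a library does not depend on how libraries are scaled. Unlike the sum, however, this share rests wholly on the estimated split of reads between the near-identical genes. It also rests on the low values of Hspa1a, 1.39 to 3.71 TPM over the libraries, so a shift in the split was not told from a shift in expression. This quantity and the other within-library ratios below were chosen after their values were seen.

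The Hsp90 genes differed little in level. Hsp90ab1 measured 1971, 1865 and 1991 TPM in rMANF replicates 1, 2 and 3, against 2122, 1560 and 1668 TPM in vehicle replicates 1, 2 and 3. Vehicle replicate 1 lay above all rMANF libraries and the other vehicle libraries below them. Its log2 difference was 0.14 ± 0.12 (SE; limma, adjusted p = 0.564), and 0.27 without vehicle replicate 1 (adjusted p = 0.0906). The same difference was 0.05 without vehicle replicate 2 (adjusted p = 0.876).

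Hsp90aa1 measured 619.9, 672.8 and 602.2 TPM in rMANF replicates 1, 2 and 3, against 845.7, 596.8 and 622.5 TPM in vehicle replicates 1, 2 and 3. Here too vehicle replicate 1 was the highest and the rest overlapped. The log2 difference was −0.11 ± 0.13 (SE; limma, adjusted p = 0.699), and its sign turned without vehicle replicate 1 (0.05). Within each library the ratio of Hsp90ab1 to Hsp90aa1 was 3.18, 2.77 and 3.31 in rMANF replicates 1, 2 and 3, against 2.51, 2.61 and 2.68 in vehicle replicates 1, 2 and 3. The groups did not overlap, which by itself fixes the exact two-sided permutation p at 0.1, the smallest possible. In vehicle replicate 1 the ratio was the lowest of the 6, although both genes were at their highest there.

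**Figure D3:**
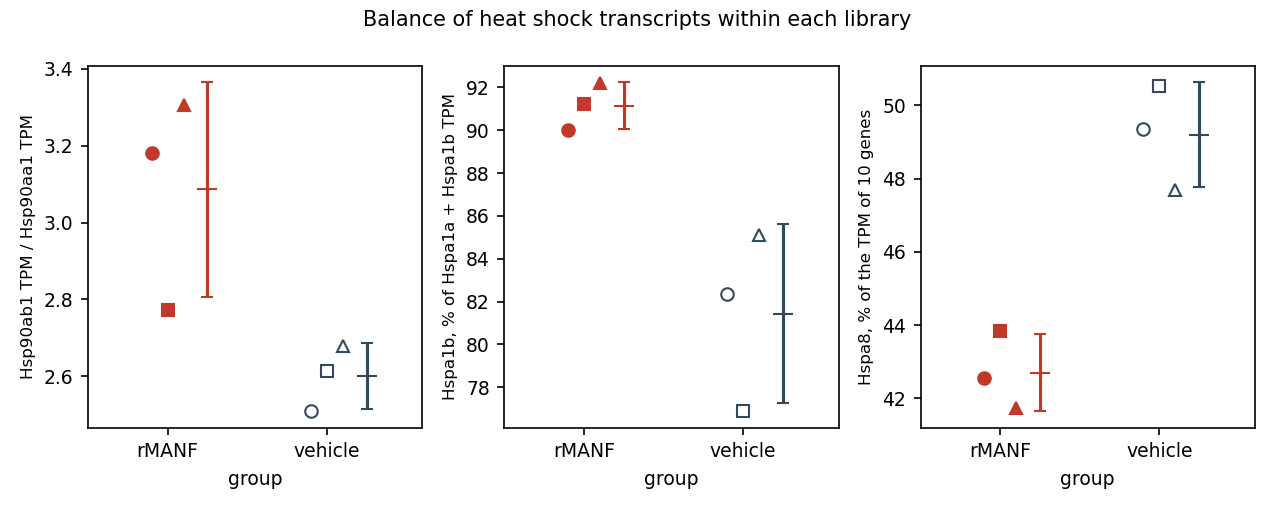
Ratio of Hsp90ab1 to Hsp90aa1 TPM, share of Hspa1b in the Hspa1a and Hspa1b sum, and share of Hspa8 in the summed TPM of the 10 genes, with 1 marker per library and the mean with SD beside it (rMANF left, vehicle right, n = 3 each). In all 3 panels, chosen after their values were seen, the groups do not overlap, on axes that do not start at 0. The share of Hspa1b rests on the estimated split of reads between near-identical genes.

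Hspa8 took a smaller share of the summed heat shock TPM in rMANF libraries. The share was 42.6%, 43.8% and 41.7% in rMANF replicates 1, 2 and 3, against 49.4%, 50.5% and 47.7% in vehicle replicates 1, 2 and 3. The rMANF libraries were all under the lowest vehicle library, with a difference of −6.49 percentage points between the means. That separation by itself fixes the exact two-sided permutation p at 0.1, the smallest possible. Leaving out any single library left the difference between the means at −7.25 to −5.82 percentage points. As the groups did not overlap, no such omission could turn its sign. The share was not computed with the GC trend removed.

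Of the regulators and co-chaperones, Dnajb1, the J-domain partner of the inducible Hsp70 (chromosome 8, 83608193 to 83612653), lay slightly higher with rMANF. It measured 45.9, 45.4 and 49.4 TPM in rMANF replicates 1, 2 and 3, against 40.8, 35.1 and 44.9 TPM in vehicle replicates 1, 2 and 3. The groups did not overlap, by a narrow gap between rMANF replicate 2 and vehicle replicate 3. The log2 difference of 0.22 ± 0.11 (SE) did not pass the threshold (limma, adjusted p = 0.290), and without vehicle replicate 2 it was 0.13 (adjusted p = 0.527).

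Hsf1, the transcription factor of the heat shock response (chromosome 15, 76477422 to 76501913), had the smallest spread of the 10 genes. It measured 52.3, 52.2 and 51.1 TPM in rMANF replicates 1, 2 and 3, against 49.5, 41.3 and 47.5 TPM in vehicle replicates 1, 2 and 3. Each rMANF library exceeded each vehicle library. The log2 difference was 0.17 ± 0.09 (SE; limma, adjusted p = 0.340), and without vehicle replicate 2 it was 0.09 (adjusted p = 0.595).

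Bag3, an exchange factor that hands Hsp70 clients to autophagy (chromosome 7, 128523616 to 128546981), showed no direction. It measured 31.2, 32.6 and 36.1 TPM in rMANF replicates 1, 2 and 3, against 38.4, 29.5 and 28.7 TPM in vehicle replicates 1, 2 and 3. Vehicle replicate 1 was the highest of the 6 and the other vehicle libraries were the lowest. The log2 difference was 0.06 ± 0.13 (SE; limma, adjusted p = 0.847), with a 95% interval of −0.24 to 0.35. Its sign turned under quantile normalization (−0.0018).

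Base composition of the transcripts moved with some of these differences and not with others. Over all tested genes the median log2 difference was −0.05 for the 3304 genes under 45% GC and 0.20 for the 2865 genes at 55% GC or more. Hsp90aa1, Hspa8 and Hsph1, at 43.7%, 45.9% and 47.3% GC, all lay below 0, and Hsp90ab1, Dnajb1, Hsf1 and Bag3, at 51.0% to 56.1% GC, all lay above it. The members richest in GC did not share a sign: Hspa1b, at 58.1%, lay at 0.61, while Hspa1a and Hspb1, at 58.9% and 61.7%, both lay at −0.38. With each library's GC trend removed, Hspa8 and Hsph1 stayed at −0.31 and −0.30. Dnajb1 was at 0.12 and Hsf1 at 0.06 in that fit, and Bag3 turned to −0.11. Hspa1b was at 0.41, Hspa1a at −0.60 and Hspb1 at −0.65. The gap between the log2 differences of Hsp90ab1 and Hsp90aa1 was 0.24, and 0.14 with the trend removed. For Hspa1b and Hspa1a the gap was 0.99, and 1.01 with the trend removed. That gap changed with the value added to TPM before the log. With 0.1 TPM added, Hspa1b lay at 0.65 and Hspa1a at −0.54. With 5 TPM added, they lay at 0.49 and −0.17.

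The small heat shock protein gene Hspb1, which encodes Hsp27 and is abundant in muscle (chromosome 5, 135887919 to 135889563), was set apart by 1 library. It measured 6.19, 5.56 and 7.09 TPM in rMANF replicates 1, 2 and 3, against 4.39, 27.0 and 4.56 TPM in vehicle replicates 1, 2 and 3. Vehicle replicate 2 was the highest of all, and the other vehicle libraries were the lowest. With all libraries the log2 difference was −0.38 ± 0.57 (SE; limma, adjusted p = 0.758). Without vehicle replicate 2 it turned to 0.41 (limma, adjusted p = 0.275).

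The same library held most of the skeletal muscle RNA. Over 20 markers of skeletal muscle the sum was 172, 171 and 151 TPM in rMANF replicates 1, 2 and 3, against 262, 1647 and 206 TPM in vehicle replicates 1, 2 and 3. Eno3 alone made up 141 to 159 TPM of the sums in rMANF libraries. All 20 markers were highest in vehicle replicate 2, and none was under 1 TPM in every library. Of them 14 did not overlap between the groups, with rMANF lower, against 9.02% of all tested genes. Some lay near 0 in rMANF libraries, such as Myh4 and Mybpc2 at means of 0.018 and 0.023 TPM. The part of the skeletal muscle markers in the Hspb1 result was not tested beyond leaving out vehicle replicate 2.

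Among the other small heat shock genes the same library was again the highest for 4 of the 6 tested, Cryab, Hspb7, Hspb6 and Hspb2. Cryab, which encodes alpha-B crystallin, measured 39.9, 39.8 and 61.8 TPM in rMANF replicates 1, 2 and 3, against 51.7, 90.4 and 27.1 TPM in vehicle replicates 1, 2 and 3. Hspb7, a muscle small heat shock gene, reached 6.49 TPM in vehicle replicate 2 and 0.410 to 1.47 TPM in the other 5 libraries. Hspb6 and Hspb2 also peaked there, at 17.3 and 8.99 TPM. For Hspb2 the rMANF libraries lay close below, at 7.41 to 8.56 TPM. Hspb8, the small heat shock partner of BAG3, behaved otherwise and was the most abundant of the list. It measured 174, 174 and 159 TPM in rMANF replicates 1, 2 and 3, against 156, 153 and 153 TPM in vehicle replicates 1, 2 and 3, without overlap (log2 difference 0.14 ± 0.08, SE; limma, adjusted p = 0.352). Of the 9 genes on this list Hspb3 and Hspb9 were below the filter and Cryaa had no row to analyse. Hspb11 averaged 61.5 ± 7.53 TPM with rMANF and 65.8 ± 14.1 TPM with vehicle (SD, n = 3 each). It was highest in vehicle replicate 1, at 82.1 TPM. The 6 tested had a median of −0.08, with 2 above 0, 4 below and 0 called by limma.

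**Figure D4:**
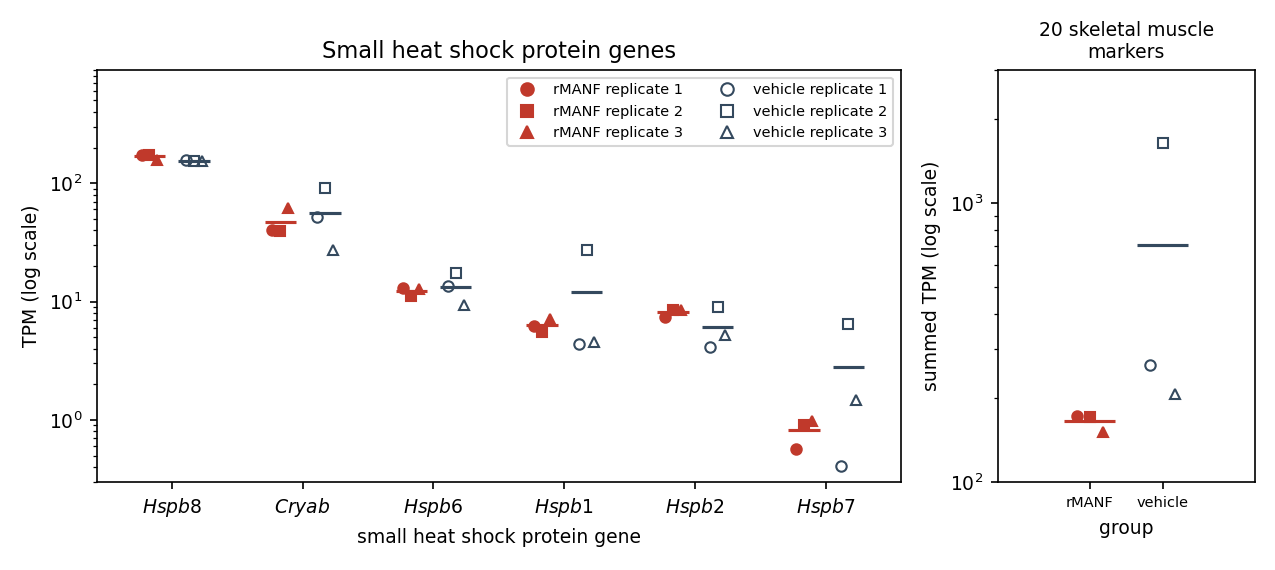
Left, TPM of 6 small heat shock protein genes in each library on a log axis, with a bar at each group's mean. Right, summed TPM of 20 skeletal muscle markers on a log axis, where vehicle replicate 2 lies at 1647 TPM and the other 5 libraries at 151 to 262 TPM.

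The wider chaperone network was described by lists of genes. Limma called 0 genes of any of the 9 lists, and the medians of the 8 chaperone lists lay between −0.08 and 0.11, beside 0.04 over all tested genes. Some of these medians shifted under alternatives. That of the small heat shock list was 0.19 with library weights, a move beyond the spread between libraries. Without vehicle replicate 3 it was −0.23, a move within that spread. The median of the heat shock factor list was 0.25 without vehicle replicate 1, beyond the spread, and −0.076 without vehicle replicate 2, within it. With the GC trend removed the J-domain, mitochondrial and Hsp90 co-chaperone medians were −0.046, −0.016 and −0.099, all moves beyond the spread. For the counts given below, 57.3% of all genes lay above 0. At an unadjusted p under 0.05, 13.9% of all genes lay higher and 6.63% lower.

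Of the other cytosolic Hsp70 and Hsp110 genes, 4 of 6 tested lay above 0. The most abundant, the exchange factor gene Hspa4 and the ribosome-associated Hspa14, measured 110 ± 6.15 and 88.6 ± 1.203 TPM with rMANF, against 115 ± 25.6 and 85.2 ± 6.35 TPM with vehicle (SD, n = 3 each). Both differed by less than the spread between vehicle libraries. Hspa12b, a distant relative known from endothelial cells, measured 10.6 ± 0.508 TPM with rMANF and 7.58 ± 0.240 TPM with vehicle without overlap (log2 difference 0.44; limma, adjusted p = 0.0986). The 9 endothelial markers summed to 137 to 167 TPM in rMANF libraries and 105 to 140 TPM in vehicle libraries, with none under 1 TPM in every library, and their part in the Hspa12b value was not tested. Hspa4l differed by 0.20 (adjusted p = 0.587). Hspa12a was below the filter.

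Of the other J-domain genes 8 of 14 tested lay above 0 and 0 passed an unadjusted p of 0.05. Dnajc8 and Dnaja2 were the most abundant, at 157 ± 11.9 and 158 ± 9.18 TPM with rMANF, against 171 ± 17.6 and 149 ± 17.2 TPM with vehicle. Dnajb12, which is anchored in the endoplasmic reticulum membrane, differed by 0.28 and Dnajc9, a histone-binding co-chaperone, by −0.26 (limma, adjusted p = 0.243 and 0.304).

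Among genes that end the Hsp70 cycle or pass clients on, Bag family members went opposite ways. Bag6, which guards membrane proteins and proteins bound for degradation, measured 84.9, 84.2 and 86.8 TPM in rMANF replicates 1, 2 and 3, against 57.2, 60.8 and 69.4 TPM in vehicle replicates 1, 2 and 3. Its groups lay well apart (log2 difference 0.45 ± 0.09, SE), but it missed the threshold (limma, adjusted p = 0.0894). That adjusted p, the lowest of the fit, was a tied value. Klf4 held the same one at a smaller unadjusted p (limma, 0.000249 against 0.00127 for Bag6). Bag1 measured 197, 196 and 194 TPM in rMANF replicates 1, 2 and 3, against 247, 219 and 215 TPM in vehicle replicates 1, 2 and 3. It lay lower without overlap (−0.21 ± 0.08; adjusted p = 0.203). Stip1, the Hop adaptor between Hsp70 and Hsp90, stood at 184 ± 5.30 TPM with rMANF and 188 ± 12.5 TPM with vehicle. Over the 9 genes 5 lay above 0, with a median of 0.03.

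The 18 Hsp90 co-chaperone genes had 8 above 0 and 10 below, with 2 in each direction at an unadjusted p under 0.05. Ahsa1, which speeds up the Hsp90 ATPase, and Nudc were the most abundant and differed by −0.04 and 0.01. Fkbp5, an Hsp90-binding immunophilin and a known glucocorticoid target, measured 122, 125 and 113 TPM in rMANF replicates 1, 2 and 3, against 96.5, 75.4 and 94.2 TPM in vehicle replicates 1, 2 and 3. All rMANF values were the higher ones (log2 difference 0.44 ± 0.11, SE; limma, adjusted p = 0.112). Ahsa2 lay lower (−0.34 ± 0.12; adjusted p = 0.175).

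The chaperonin and prefoldin genes, whose products fold actin and tubulin, were the most abundant of these lists, at summed levels of 4357 to 4537 TPM in rMANF libraries and 4442 to 4609 TPM in vehicle libraries. Of 14 members 6 lay above 0 (median −0.04). The chaperonin subunits Cct5 and Cct2 differed by 0.08 and −0.04, Tcp1, the first subunit of the same ring, by −0.17, and the prefoldin subunit Pfdn4 by −0.22 (limma, adjusted p = 0.223 for Tcp1 and 0.318 for Pfdn4). Of 12 mitochondrial chaperone and protease genes 9 lay above 0 (median 0.06). The protease genes Lonp1 and Clpx lay higher by 0.45 and 0.25 without overlap, and the chaperonin pair Hspd1 and Hspe1 lower by −0.16 and −0.13 without overlap (limma, adjusted p = 0.0947, 0.187, 0.278 and 0.408).

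The other heat shock factor genes were low. Hsf2 stood at 18.2 ± 0.493 TPM with rMANF and 17.8 ± 4.64 TPM with vehicle, and Hsf4 at 10.5 ± 0.914 TPM with rMANF and 8.17 ± 0.824 TPM with vehicle (SD, n = 3 each). Hsbp1, whose product binds HSF1 and dampens it, measured 180, 189 and 179 TPM in rMANF replicates 1, 2 and 3, against 231, 228 and 203 TPM in vehicle replicates 1, 2 and 3. It lay lower without overlap, opposite in sign to Hsf1 (log2 difference −0.27 ± 0.08, SE; limma, adjusted p = 0.1401). Hsf5 and Hsf2bp were below the filter, and Hsf3 had no row to analyse.

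Immediate early genes were listed beside the heat shock genes because tissue handling can raise both. Of 18 tested members 12 lay above 0, against 57.3% of all genes, with a median of 0.20. At an unadjusted p under 0.05, 7 were higher and 0 lower, against 13.9% and 6.63% of all genes. The median was −0.034 with the GC trend removed and 0.035 without rMANF replicate 1. Klf4 and Klf2, transcription factors of vessels and other tissues, measured 16.0 ± 1.23 and 153 ± 10.4 TPM with rMANF, against 9.55 ± 0.884 and 115 ± 10.1 TPM with vehicle (SD, n = 3 each; limma, adjusted p = 0.0894 and 0.101). Jund, an AP-1 subunit, differed by 0.30 and Ier3 by −0.08. Their part in the heat shock values was not tested.

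**Figure D5:**
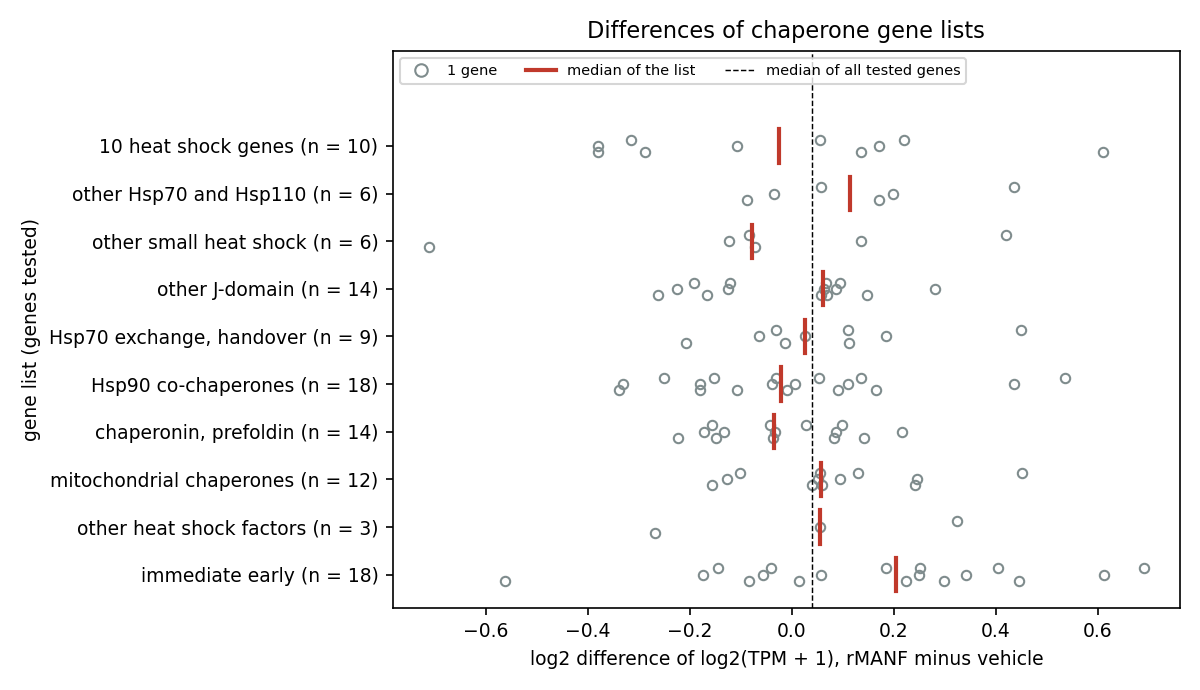
Log2 difference of log2(TPM + 1), rMANF minus vehicle, of every tested gene in the 10 heat shock genes and 9 lists around them, with each list's median as a bar and the median of all tested genes, 0.04, as a dashed line. The medians of the chaperone lists lie between −0.08 and 0.11 and that of the immediate early list at 0.20, which was −0.034 with the GC trend removed and 0.035 without rMANF replicate 1.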

How the data were processed

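RNA-seq libraries, prepared with Nextera XT per the labels' protocols, were analysed from 3 rMANF and 3 vehicle samples. The tools named by the submitters' processing notes are Salmon 0.14.1, HTSeq 0.11.0, fastp and cutadapt, with build mm10; no source used here says which of them gave the values. The deposited values are log2 TPM per gene, with no offset and −9 for 0 TPM. Vehicle columns carry the name IgG, where the treatment label says vehicle. TPM keeps no depth, so none is given, nor any counting interval.

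Values were turned back to TPM and log2(TPM + 1), a scale that understates changes of low genes. Genes averaging 1 TPM or more over the 6 libraries entered 1 linear model (limma 3.58.1, R 4.3.3; mean trend, two-sided, Benjamini-Hochberg over all tested genes, threshold 0.05). Single sums and ratios had exact permutation tests, which for the ratios only restate that the groups did not overlap. The procedure was tested on simulated data, where it recovered 69.6% of genes changed by a log2 of 1 and 94.6% of those changed by 2. The noise was drawn independently for each gene and library. Deviations that genes of a library share, such as a GC trend, were thus absent, and these rates need not hold for the real libraries. Changes as small as those of the heat shock genes were not simulated. Loci and base composition were read from the GENCODE M21 annotation of GRCm38 (GC found for 99.7% of tested genes), promoters from RefSeq. The labels call the libraries biological replicates; p-values measure only the spread between them.

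The 10 genes and all lists were chosen with earlier results of these data known. Named from each list were the 2 members of highest level, the 2 of smallest p and those discussed beside Hspb1, with, for Hspa8 and Hspa1a, the 3 genes most like each. Alternatives were a pseudocount of 0.1 or 5 TPM, a filter at 5 TPM or none, 3 scalings, 2 variance models, library weights, a replicate block, GC correction, a threshold of 0.10 and leaving out each library.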

Additional observations from a re-analysis of the deposited data

How the results depend on the processing

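Limma called 0 genes at the threshold of 0.05 and 0 of the 10 heat shock genes, and the count among the heat shock genes was 0 under every alternative run. Over all genes the count was 737 with library weights, 3 with the replicate block, 1 with the GC trend removed, 351 at a threshold of 0.10, and 0 to 4 when 1 library was left out (4 without vehicle replicate 1, 2 without rMANF replicate 1). The median log2 difference of the 10 genes, −0.03, was 0.088 with library weights and −0.095 to 0.12 when 1 library was left out (0.12 without vehicle replicate 1). Signs turned for Bag3 under quantile normalization (−0.0018) and GC correction (−0.11, with or without the replicate block), and its difference was −0.019 to 0.18 when 1 library was left out. Hspb1 turned with library weights (0.061) and ran from −0.78 to 0.41 when 1 library was left out; Hsp90aa1 ran from −0.20 to 0.050 (without vehicle replicate 1). Of the other genes Hspa8 ran from −0.40 to −0.18, Hsph1 from −0.41 to −0.16, Hspa1b from 0.23 to 0.94, Hspa1a from −0.63 to −0.17, Hsp90ab1 from 0.05 to 0.27, Dnajb1 from 0.12 to 0.30 and Hsf1 from 0.06 to 0.22 over the alternatives, with no change of sign. Of 171 medians of the lists around them under alternatives 12 moved by more than the spread between libraries, in either direction. Hspa1a could not be fitted with the filter at 5 TPM. The summed Hspa1a and Hspa1b difference ran from 1.87 to 10.5 TPM when 1 library was left out (1.87 without rMANF replicate 1, 3.58 without vehicle replicate 2, 10.1 without rMANF replicate 2, 10.5 without vehicle replicate 3). Same-numbered libraries of the groups did not deviate together (Pearson's r across genes −0.07, 0.03 and 0.05 for numbers 1, 2 and 3), and the blocked fit changed no call among the 10 genes. Over all genes the median difference was 0.04, and 0.0051 to 0.02 under the other scalings. The cause of these changes was not tested.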

Other observations

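Within groups 9 of the 10 heat shock genes varied more between vehicle libraries than between rMANF libraries. For Hspa8 the coefficient of variation was 2.91% with rMANF and 17.2% with vehicle, for Hsp90ab1 3.48% with rMANF and 16.7% with vehicle, and for Hsf1 1.24% with rMANF and 9.31% with vehicle. Over all tested genes the median was 8.44% with rMANF and 13.5% with vehicle. Without vehicle replicate 1, left out after seeing the data, the vehicle value was 3.63% for Hspa8, 4.75% for Hsp90ab1, 9.93% for Hsf1 and 8.52% for the median of all tested genes. Between rMANF libraries Hsp90aa1 and Bag3 varied by 5.82% and 7.54%, more than between the 2 vehicle libraries left (2.99% and 2.01%). Hspa1a went the other way, at 47.0% with rMANF and 22.6% with vehicle.

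Among 9172 genes averaging 5 TPM or more, without predicted gene models, Rik clones and pseudogenes, those most like Hspa8 over the 6 libraries were Rtraf, LTO1 and Cenpk, with Pearson's r of 0.995, 0.994 and 0.993 on log2(TPM + 1). For these as for Hspa8, vehicle replicate 1 was the highest library, and Cenpk, a centromere gene, measured 14.4, 16.4 and 14.5 TPM in rMANF replicates 1, 2 and 3, against 31.5, 18.9 and 18.3 TPM in vehicle replicates 1, 2 and 3. Those most like Hspa1a were Rps6ka1, Lsm6 and Mrps18a, with r of 0.981, 0.975 and 0.974. As many as 358 genes passed an r of 0.9 with Hspa8 and 14 with Hspa1a; the points share the same 6 libraries.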
